A study of Mus musculus with 6 samples.

Results

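The 10 receptor tyrosine kinase genes Egfr, Erbb2, Met, Igf1r, Insr, Pdgfra, Pdgfrb, Fgfr1, Axl and Ddr2 were measured at the mRNA level by sequencing of LLC cells (Lewis lung carcinoma, a tumour line of mouse lung) after targeting of Calr, the gene for the ER chaperone calreticulin. They were chosen by symbol as glycoproteins folded in the ER, and all 10 were found among the 55291 gene symbols of the deposited table. The Calr KO cells had been given Cas9 and a guide directed at calreticulin, and the control cells, labelled WT, Cas9 and a control guide. Both were cultured for 10 days after transient delivery, otherwise untreated, and were seeded in 6-well plates and collected 48 hours later (n = 3 libraries each). The wells of a group came from the same targeted population, so that p-values measure the spread between wells, which may be technical. The labels do not say whether the targeted cells were cloned.

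Receptor tyrosine kinases are membrane proteins with a ligand-binding extracellular part and a kinase inside the cell. Most are activated by binding of a growth factor, and Ddr2 by collagen. Active receptors phosphorylate each other and the adaptors that lead to RAS-MAPK and PI3K signalling. The extracellular parts carry N-linked glycans and disulfide bonds that are made in the ER, where calreticulin and its membrane-bound relative calnexin hold glycoproteins during folding. The values here are gene-level mRNA, and receptor folding, surface level and kinase activity were not measured.

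The targeted gene was lower in every Calr KO library. Calr had 4467, 4216 and 4453 normalised counts in Calr KO cells, against 10711, 10202 and 11047 in control cells (log2 change -1.28, SE 0.04, limma adjusted p = 7.9e-07). The 6 libraries summed to between 14040700 and 14100000 normalised counts. Mitochondrial transcripts made up 2.89% to 2.97% of the counts in Calr KO libraries and 2.78% to 2.80% in control libraries. In bulk samples, fewer cells of a type and less RNA per cell cannot be told apart. Of 8 markers of epithelium and lung, Krt8 and Krt18 averaged at least 10 normalised counts, and Epcam, Krt19, Nkx2-1, Sftpc and Sftpa1 were listed at 0 in all libraries. These 8 markers summed to 4961 to 5240.2 normalised counts in Calr KO libraries and 4632 to 4932 in control libraries. Summed macrophage markers lay between 65.1 and 112.9 normalised counts in Calr KO libraries and between 75.5 and 97.1 in control libraries. Most of this sum was Cd68, which averaged 79.0 in Calr KO and 68.0 in control cells, and Adgre1 was listed at 0 in all libraries. Lymphocyte markers summed to 7.16 to 10.7 in Calr KO libraries and 3.17 to 12.1 in control libraries, and endothelial markers to 46.1 to 60.3 in Calr KO libraries and 37.3 to 45.2 in control libraries. The fibroblast and mesenchyme markers, which include Pdgfra and Pdgfrb and are dominated by Vim, summed to 37729 to 39541 in Calr KO libraries and 41030.0 to 42904 in control libraries. Within this list Vim averaged 36379 in Calr KO and 39343 in control cells (limma adjusted p = 0.278). Dcn, chosen after its values were seen, went the other way, with 31.9 in Calr KO and 15.5 in control cells (limma adjusted p = 0.312). The part of the cell type markers in the receptor values was not tested.

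None of the 10 receptors passed the test across all genes. Each averaged at least 10 normalised counts over the 6 libraries and was tested with limma on log2(value + 1), as a two-sided test, and p-values were adjusted by Benjamini-Hochberg over the 13199 tested genes, with calls at an adjusted p under 0.05. In the same fit 0.28% of the tested genes were called. At an unadjusted p under 0.05 there were 2 of the 10 receptors, Erbb2 and Axl, beside 8.88% of all tested genes. These were also the only members whose groups did not overlap, against 14.8% of all tested genes. Erbb2 values were above the controls and Axl values below them. The log2 changes of the 10 ran from -0.14 to 0.43 with a median of -0.01, beside a median of 0.00036 over all tested genes, and 5 were positive and 5 negative. Voom weights also gave 0 members.

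**Figure D1:**
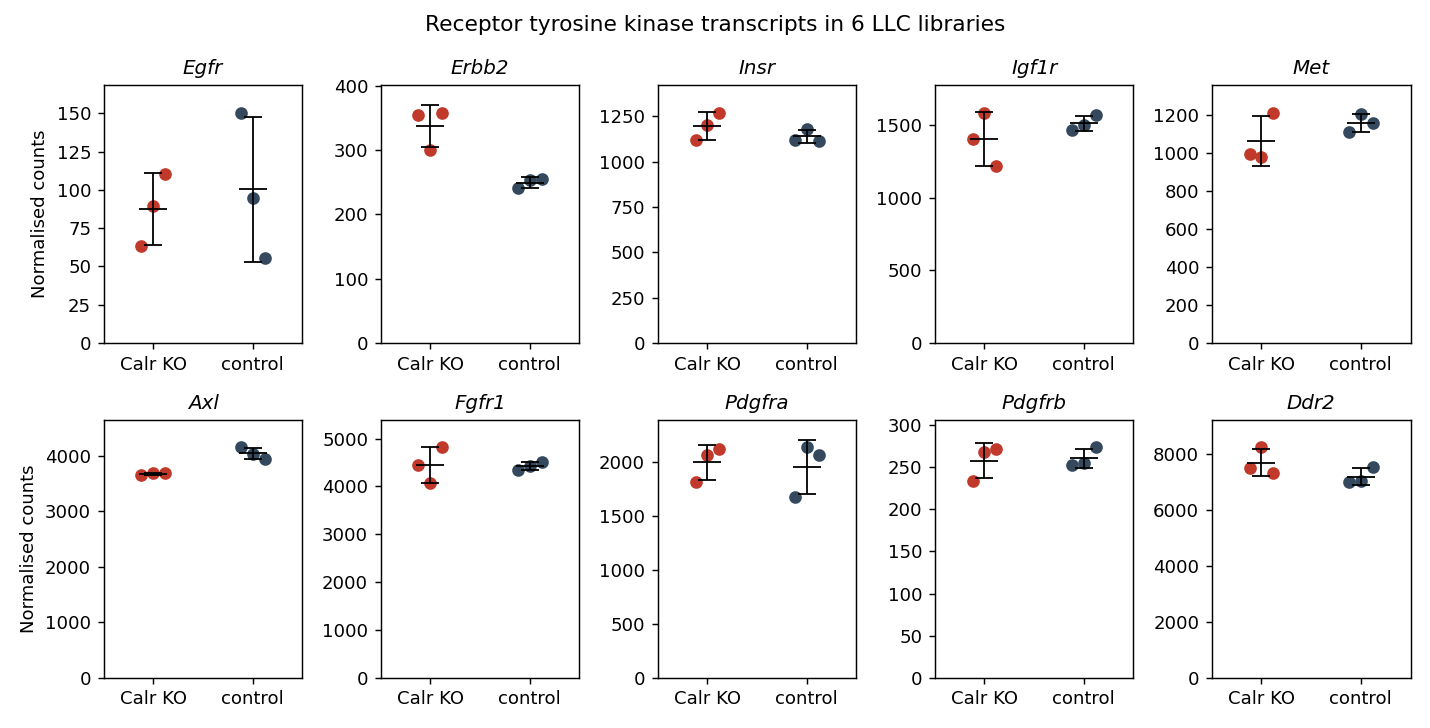
Normalised counts (vertical axes, each starting at 0) of the 10 receptor genes in Calr KO libraries (red, left) and control libraries (dark, right). Points are libraries, and the bar and whiskers are the mean and SD of 3 libraries. The Erbb2 points of Calr KO cells, from 299.6 to 358, all lie above the control points, from 240.2 to 255.

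In control cells the receptors spanned a wide range of mRNA levels. Per kilobase of merged exon in GENCODE M21, Axl had the highest control level, 804 ± 20.4 normalised counts per kilobase (SD, n = 3), and Egfr the lowest, 8.86 ± 4.21, a ratio of 90.8. Ddr2 followed Axl with 775 ± 31.4, and the ranges of these neighbours overlapped. Fgfr1 (448 ± 8.96), Pdgfra (195 ± 25), Met (151 ± 6.20), Igf1r (90.2 ± 3.03) and Insr (82.9 ± 2.74) came next on the same scale, each with a range apart from its neighbours. Erbb2 (47.9 ± 1.54) and Pdgfrb (47.6 ± 2.07) overlapped each other and stood apart from Insr above and Egfr below. The order of Axl, Ddr2 and Fgfr1 depended on the length used. Fgfr1 came before Ddr2 per length of the longest transcript, and Ddr2 and Fgfr1 came before Axl per coding length, where Igf1r also passed Met and Pdgfrb passed Erbb2.

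Set among all 58 receptor tyrosine kinases of the fixed lists, the members held 3 of the 4 highest places. Axl and Ddr2 ranked 1 and 2 by control level per kilobase and Fgfr1 ranked 4, while Erbb2, Pdgfrb and Egfr ranked 19, 20 and 24. The ephrin receptor gene Epha2 ranked 3 with 653 ± 49.0 normalised counts per kilobase in control cells, and the WNT co-receptor gene Ryk ranked 5 with 391 ± 20.4. The 10 members made up 56.2%, 57.3% and 56.8% of the summed per-kilobase level in Calr KO libraries, against 57.0%, 57.5% and 56.6% in control libraries. These shares overlapped between the groups.

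**Figure D2:**
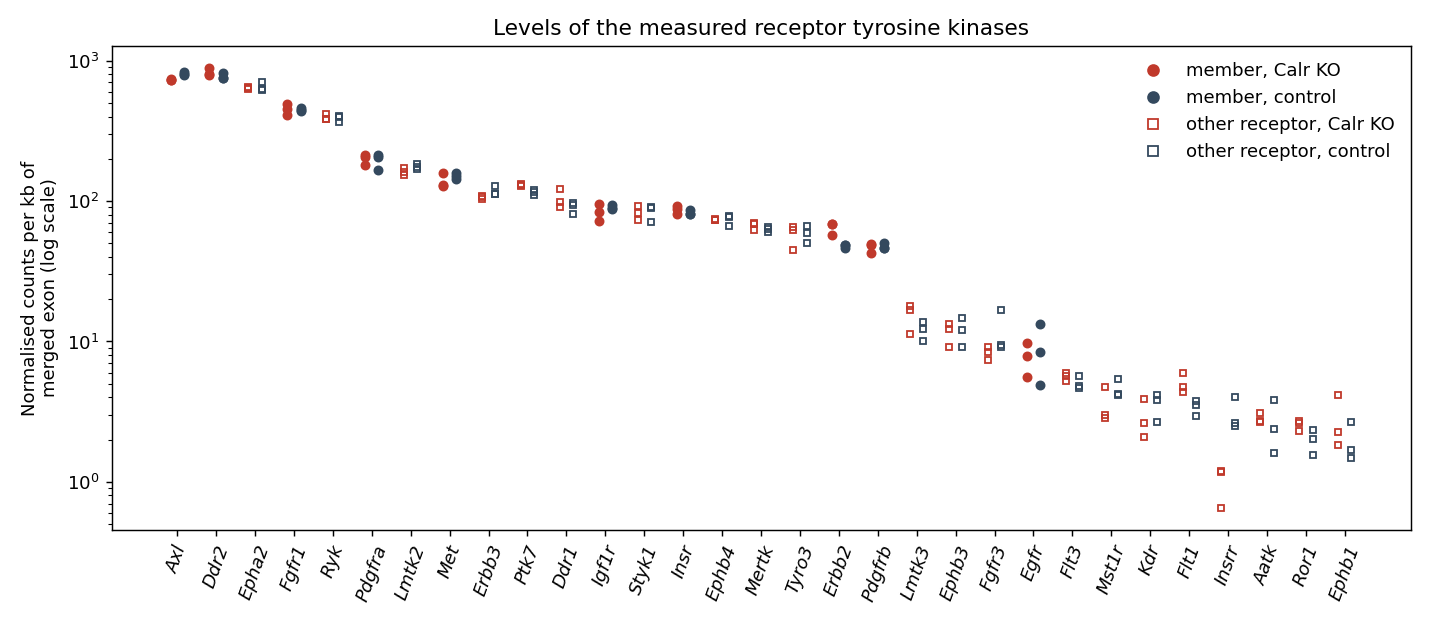
Level of 31 receptor tyrosine kinase genes that passed the filter on low values, in normalised counts per kilobase of merged exon (log scale), ordered by control mean. Filled circles are the 10 members and open squares 21 of the other receptors, each point a library, with Calr KO in red and left of control in dark. Axl and Ddr2 are at the top. Egfr is the lowest of the 10 members, with widely spread points, and several of the other receptors lie below it.

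Of the ErbB family receptors, Erbb2 had the smallest p-value of the 10 members and Egfr the lowest level. Erbb2 (ENSMUSG00000062312.5, chromosome 11, positions 98412470 to 98437716, plus strand, GRCm38) encodes the family member with no known ligand of its own, which pairs with the others. It had 355, 299.6 and 358 normalised counts in Calr KO cells, against 240.2, 253 and 255 in control cells. All 3 Calr KO libraries were above all 3 controls. The mean was 338 ± 32.9 in Calr KO, against 249 ± 8.0 in control cells (SD, n = 3 each), a 1.35-fold difference. The log2 change was 0.43 (SE 0.10, 95% interval 0.21 to 0.66), and the limma adjusted p was 0.207. It ranked 114 of the 13199 tested genes by p-value. Over the 17 alternative settings its change was positive each time, and the adjusted p lay between 0.175 and 0.466. The exons of Erbb2 share 9 bases with Mien1 on the opposite strand, at 249 normalised counts in Calr KO libraries and 238 in controls.

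The promoter of Erbb2 is printed because it belongs to the receptor with the smallest p-value, beside that of Hspa5, the gene for the ER chaperone BiP, which rose in the same libraries (log2 change 0.50, limma adjusted p = 0.0014) and was chosen after its values were seen. Both are the 250 bases before the RefSeq gene start on GRCm38.p6, plus strand, read 5′ to 3′. Erbb2 lies at chr11:98412234-98412483 and Hspa5 at chr2:34771840-34772089. Capitals mark a CCAAT box in Erbb2, and in Hspa5 the fixed letters of an ER stress element, a CCAAT followed after a spacer by CCACG.
Erbb2: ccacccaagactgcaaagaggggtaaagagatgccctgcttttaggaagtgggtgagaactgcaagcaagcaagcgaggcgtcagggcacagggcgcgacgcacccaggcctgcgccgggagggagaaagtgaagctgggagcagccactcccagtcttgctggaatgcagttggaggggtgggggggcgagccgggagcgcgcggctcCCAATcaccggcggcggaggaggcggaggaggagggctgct
Hspa5: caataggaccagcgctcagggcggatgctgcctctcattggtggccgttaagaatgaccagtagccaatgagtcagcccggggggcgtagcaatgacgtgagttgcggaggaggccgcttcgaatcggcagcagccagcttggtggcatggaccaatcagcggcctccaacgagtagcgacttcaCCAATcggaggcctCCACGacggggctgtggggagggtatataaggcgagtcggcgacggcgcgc

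The RefSeq table held promoters of 7 of the 10 members, without Insr, Fgfr1 and Pdgfrb. The Ddr2 window, chr1:170088895-170089194, lies inside the GENCODE gene, whose 5′ end on the minus strand is at 170110762. The motif counts for Ddr2 therefore do not cover that start. Windows from 250 bases before to 50 bases after the start were searched on both strands. The ER stress element, spelled CCAAT, then 9 bases of any kind, then CCACG, and bound by ATF6 and XBP1 together with NF-Y, was in 0 of the 7, in 0.119% of all 32851 promoters, and in 5 of 17 ER folding genes, namely Canx, Dnajc3, Hsp90b1, Hspa5 and Pdia6. The shorter ER stress element II, spelled ATTGG, then 1 base of any kind, then CCACG, was in 0 of the 7 members, 0.0365% of all promoters and 1 of 17 ER folding genes. The core TGACGTG was also in 0 of 7 members, in 2.01% of all promoters and in Hspa5 among the ER folding genes. The CCAAT box, which is part of the longer element, was in 1 of 7 members, Erbb2, in 37.4% of all promoters and in 14 of 17 ER folding genes. The GC box GGGCGG was in Axl, Egfr, Igf1r and Met, beside 35.7% of all promoters. A match describes letters in a window and no binding was measured.

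Egfr (ENSMUSG00000020122.16, chromosome 11, positions 16752203 to 16918158, plus strand), the receptor for EGF, TGF-alpha and amphiregulin, was low and varied widely. It had 63.2, 89.3 and 110.1 normalised counts in Calr KO cells, against 151, 94.7 and 55.8 in control cells. The control libraries spanned the whole Calr KO range, and the highest control was 2.70-fold the lowest. The SD was 2.51 times the SD of counting alone (the square root of the mean) in Calr KO and 4.76 times in control cells. The log2 change was -0.12 (95% interval -0.88 to 0.64, limma adjusted p = 0.953). At this spread the interval held changes in both directions, and the smallest detectable change was not computed. The ratio of Erbb2 to Egfr per kilobase was 12.2, 7.29 and 7.07 in Calr KO libraries and 3.47, 5.81 and 9.92 in control libraries, and the groups overlapped.

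Neither insulin receptor family gene passed the test, and the groups overlapped for both. Insr (ENSMUSG00000005534.10, chromosome 8, positions 3122061 to 3279617, minus strand) encodes the insulin receptor and had 1119, 1204 and 1271 normalised counts in Calr KO cells, against 1118, 1183 and 1117 in control cells. Its highest value was in Calr KO replicate 3 and the groups overlapped (log2 change 0.07, 95% interval -0.07 to 0.21, limma adjusted p = 0.795). Leaving out Calr KO replicate 1 gave 0.12 and leaving out Calr KO replicate 3 gave 0.03. Igf1r (ENSMUSG00000005533.10, chromosome 7, positions 67952827 to 68233668, plus strand), the receptor for the insulin-like growth factors, had 1408, 1588 and 1220.2 in Calr KO cells, against 1471, 1502 and 1571 in control cells. The Calr KO libraries held both the highest and the lowest value. Their SD was 184, against 50.9 in control cells, and the log2 change was -0.12 (95% interval -0.31 to 0.08, limma adjusted p = 0.762). Leaving out Calr KO replicate 2 gave -0.21 and leaving out Calr KO replicate 3 gave -0.02. In Calr KO replicate 3, Insr was at its highest and Igf1r at its lowest, and the Insr to Igf1r ratio per kilobase was 1.27 there. It was 0.97 and 0.926 in the other Calr KO libraries and 0.928, 0.962 and 0.868 in control libraries. Both proteins are cut by furin-type proteases on their way to the surface.

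Axl and Met, receptors linked to cell scattering and invasion, both had lower Calr KO means, as did Egfr, Igf1r and Pdgfrb. Axl (ENSMUSG00000002602.16, chromosome 7, positions 25757273 to 25788705, minus strand), the receptor for Gas6, had 3663, 3687 and 3698 normalised counts in Calr KO cells, against 4155, 4036 and 3951 in control cells. All Calr KO values lay below all control values, and the Calr KO values were close together, with an SD of 18.0, against 103 in control cells. The SD of counting alone would be 60.7 at the Calr KO mean. The fold was 0.910, the log2 change -0.14 (SE 0.03, 95% interval -0.21 to -0.06), and the limma adjusted p 0.270. It ranked 160 by p-value. Over the 17 alternatives the change of Axl was negative each time, from -0.15 to -0.12, with adjusted p between 0.227 and 0.594.

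The Axl promoter is shown as that of the lower receptor with the smallest p-value, 250 bases before the RefSeq start at chr7:25788734-25788983 on GRCm38.p6, minus strand, 5′ to 3′. Capitals mark a GC box.
Axl: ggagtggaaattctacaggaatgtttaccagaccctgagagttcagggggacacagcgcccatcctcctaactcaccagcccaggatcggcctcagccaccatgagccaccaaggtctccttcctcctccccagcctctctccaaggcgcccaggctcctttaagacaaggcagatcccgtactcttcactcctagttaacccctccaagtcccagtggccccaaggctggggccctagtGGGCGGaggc

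Met (ENSMUSG00000009376.15, chromosome 6, positions 17463800 to 17573980, plus strand), the receptor for hepatocyte growth factor, had 994, 979 and 1212 normalised counts in Calr KO cells, against 1112, 1207 and 1159 in control cells. Calr KO replicates 1 and 2 were below all controls and replicate 3 was above them. The log2 change was -0.13 (95% interval -0.32 to 0.06, limma adjusted p = 0.719). Without Calr KO replicate 3 it was -0.23, the lowest value over the settings (limma adjusted p = 0.421), and without Calr KO replicate 2 it was -0.08, the highest.

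Fgfr1 and the PDGF receptors, which respond to growth factors of mesenchymal tissue, had log2 changes between -0.02 and 0.04. Fgfr1 (ENSMUSG00000031565.18, chromosome 8, positions 25513654 to 25575718, plus strand) had 4439, 4063 and 4816 normalised counts in Calr KO cells, against 4340.4, 4425 and 4517 in control cells. The control values lay inside the Calr KO range. The log2 change was 0.00058, with a sign that depended on the scaling, and its 95% interval was -0.13 to 0.13 (limma adjusted p = 0.998). Pdgfra (ENSMUSG00000029231.15, chromosome 5, positions 75152292 to 75198215, plus strand), the receptor for all PDGF dimers but PDGF-DD, had 1815, 2068 and 2117 in Calr KO cells, against 1672, 2137 and 2065 in control cells. Replicate 1 was the lowest in each group, and the log2 change was 0.04 (95% interval -0.18 to 0.25, limma adjusted p = 0.949). Pdgfrb (ENSMUSG00000024620.11, chromosome 18, positions 61045150 to 61085061, plus strand), the receptor for PDGF-BB and PDGF-DD, had 234, 268 and 272 in Calr KO cells, against 253, 256 and 274 in control cells. The groups overlapped, with a log2 change of -0.02 (95% interval -0.24 to 0.20, limma adjusted p = 0.975). Pdgfra exceeded Pdgfrb per kilobase 4.24-, 4.22- and 4.25-fold in Calr KO libraries and 3.61-, 4.57- and 4.12-fold in control libraries.

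Ddr2 (ENSMUSG00000026674.9, chromosome 1, positions 169972307 to 170110762, minus strand), a receptor for fibrillar collagen, had 7487, 8227 and 7308 normalised counts in Calr KO cells, against 6999, 7029 and 7517 in control cells. Its highest value was in Calr KO replicate 2, and control replicate 3 exceeded the other Calr KO libraries. The log2 change was 0.09 (95% interval -0.01 to 0.20, limma adjusted p = 0.626), and 0.04 without Calr KO replicate 2. The labels do not state whether counting used strand, and exons of 3 members overlap antisense genes. The partner of Ddr2, 3110045C21Rik, shares 90 bases and was at 29.6 normalised counts in Calr KO libraries and 34.0 in controls. The partners of Pdgfra and Fgfr1 had at most 2.01.

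**Figure D3:**
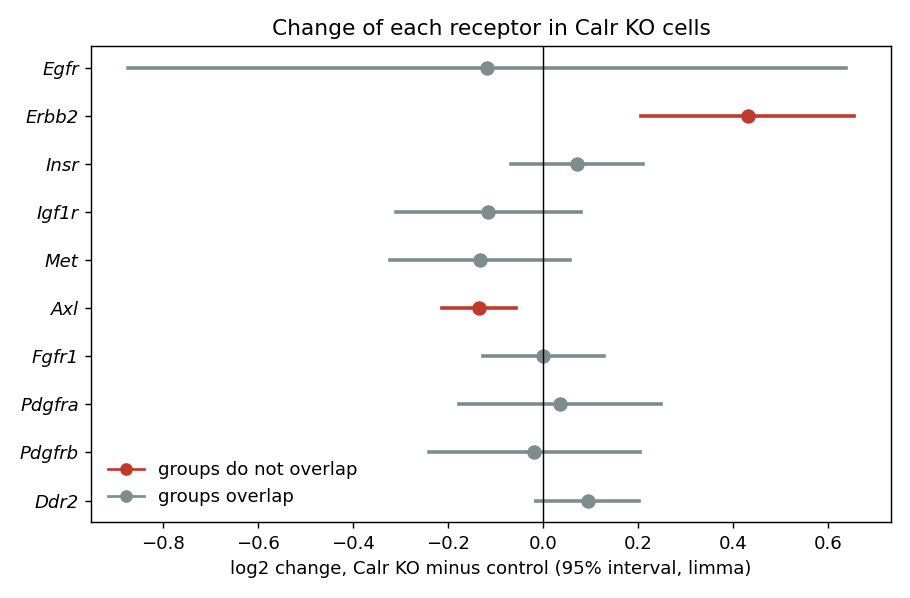
The log2 change of each receptor (Calr KO minus control, horizontal axis) with its 95% limma interval. Red marks the receptors whose 3 Calr KO values do not overlap the 3 controls, Erbb2 at 0.43 and Axl at -0.14. The other 8 are in grey, their intervals include 0, and the Egfr interval is the widest.

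Within groups, 7 of the 10 receptors had a larger SD in Calr KO than in control cells, beside 49.8% of all tested genes. The exceptions were Egfr, Pdgfra and Axl. The Calr KO SD of Fgfr1 was 376, against 88.5 in control cells, and that of Met was 131, against 47.6. Among the Calr KO libraries, 8 of the 10 receptors were highest in replicate 3, beside 33.6% of all tested genes, and Igf1r and Ddr2 were highest in replicate 2 and lowest in replicate 3. Among the control libraries, replicates 1, 2 and 3 held the highest value of 2, 3 and 5 receptors. This count was made after the values were seen.

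By a rule on likeness, the tested genes whose centred log2 values differed least from those of Erbb2 over the 6 libraries were Rabgef1, Hyou1 and Dnajb11, with mean absolute differences of 0.016, 0.035 and 0.042. Rabgef1, a guanine nucleotide exchange factor for RAB5, averaged 351 ± 26.1 normalised counts over Calr KO libraries, against 259.6 ± 7.27 over controls (log2 change 0.43, limma adjusted p = 0.165). The ER chaperone gene Hyou1 rose by 0.47 (limma adjusted p = 0.0047) and the BiP co-chaperone gene Dnajb11 by 0.52 (limma adjusted p = 0.012). Likeness here takes in both the difference between groups and the spread within them, and these parts were not separated.

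Of the other 48 receptor tyrosine kinases, 22 were tested and 0 passed. An unadjusted p under 0.05 was found for 4, beside 8.88% of all tested genes. Their median log2 change was 0.01. Insrr, the insulin receptor-related receptor, had the smallest p-value of these, with 6.86, 3.73 and 6.68 normalised counts in Calr KO cells, against 22.8, 14.3 and 15.1 in control cells. Its groups did not overlap at this low level, beside 14.8% of all tested genes (log2 change -1.45, SE 0.41, limma adjusted p = 0.325). The most abundant by normalised count were Epha2 (2971 ± 45.3 in Calr KO and 3054 ± 229 in control cells), Ryk (1797 ± 90.5 in Calr KO, 1773 ± 92.7 in control), Lmtk2 (1317 ± 81.7 in Calr KO, 1426 ± 50.7 in control), Erbb3 (642 ± 15.6 in Calr KO, 705 ± 56.1 in control) and Ptk7 (701 ± 11 in Calr KO, 624 ± 25.5 in control). Erbb3, the partner of Erbb2 that binds neuregulins, had a log2 change of -0.13 (limma adjusted p = 0.659) with groups that did not overlap.

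The ligands were tested for 17 of 30 genes, and 0 passed. An unadjusted p under 0.05 was found for 0, beside 8.88% of all tested genes, and their median log2 change was 0.05. Col3a1, a fibrillar collagen that Ddr2 can bind, averaged 21461 ± 797 normalised counts over Calr KO libraries, against 20527 ± 259 over controls (limma adjusted p = 0.572). Col1a2 was at 42.7 ± 7.84 in Calr KO, against 53.0 ± 1.33 in control cells. The EGF receptor ligand gene Hbegf was at 445 ± 59.0 in Calr KO, against 474 ± 27.0 in control cells. The following were chosen after their values were seen. Per kilobase, the Egfr ligand gene Areg was at 349 ± 29.3 in Calr KO and 367 ± 9.42 in control cells, well above Egfr itself. Gas6, the Axl ligand, was at 26.3 ± 1.15 per kilobase in Calr KO, against 26.9 ± 10.1 in control cells. Igf1, Ins1, Ins2 and Pdgfd were listed at 0 in all libraries.

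Among 15 tested co-receptors and ligand carriers 0 passed and 3 had an unadjusted p under 0.05, beside 8.88% of all tested genes. Their median log2 change was -0.02. Igf2r, the scavenger receptor for IGF2, had 5408 ± 68.4 in Calr KO and 5447 ± 88.7 in control cells. Igfbp6, a binding protein that prefers IGF2, had 598 ± 34.2 in Calr KO, against 501 ± 10.9 in control (log2 change 0.25, limma adjusted p = 0.326), and Cd44, a Met co-receptor in some of its forms, 4481 ± 18.4 in Calr KO, against 4791 ± 31.5 in control (log2 change -0.10, limma adjusted p = 0.381). Of 12 tested proteases and sheddases 0 passed and 2 had an unadjusted p under 0.05, with a median of -0.03. Among them was Adam9 (1577 ± 43.0 in Calr KO, 1744 ± 26.9 in control, log2 change -0.15). The sheddase genes Adam17 and Adam10 had log2 changes of 0.07 and -0.05.

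Of 25 tested adaptors and proximal effectors 0 passed and 1 had an unadjusted p under 0.05, beside 8.88% of all tested genes. It was Ptpn11, the SHP2 phosphatase gene (log2 change 0.15, limma adjusted p = 0.501). The abundant adaptor genes Shc1 and Crk had changes of 0.01 and 0.05, and Pik3r2, a regulatory subunit of PI3K, -0.08. Of 24 tested inhibitors, phosphatases and ubiquitin ligases 0 passed and 2 had an unadjusted p under 0.05, Hgs (0.27, limma adjusted p = 0.333), which sorts receptors toward lysosomes, and the ubiquitin ligase gene Nedd4 (-0.07). Errfi1, an inhibitor of EGF receptors, changed by -0.12 (limma adjusted p = 0.642). The medians of these lists were -0.05 and -0.01.

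The early response genes that lie downstream of receptors had 17 tested members, of which 0 passed. An unadjusted p under 0.05 was found for 4, beside 8.88% of all tested genes. The median log2 change of the 17 was -0.05, beside 0.00036 over all tested genes, and 13 of the 17 were negative. Dusp6, an ERK phosphatase that is itself induced by ERK, had 5649, 5789 and 5637 normalised counts in Calr KO cells, against 6416, 6157 and 6331 in control cells. Its groups did not overlap, as for 14.8% of all tested genes (log2 change -0.15, SE 0.03, limma adjusted p = 0.162). Myc was at 15485 ± 356 in Calr KO, against 16639.8 ± 509 in control cells (log2 change -0.10, limma adjusted p = 0.326). Jun was at 7244 ± 72.7 in Calr KO, against 7492 ± 330.1 in control cells.

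Genes of the ER folding list were called in the same fit. Of its 18 tested genes 10 rose, 1 fell and 7 did not pass, with a median log2 change of 0.39. Calls were made for 0.28% of all tested genes and for 0 of the 10 receptors. Those with the smallest p-values were Pdia6 (0.62), Pdia4 (0.77), Hsp90b1 (0.50), Pdia3 (0.68) and Sdf2l1 (0.79), with limma adjusted p of at most 0.0014. These chaperones and disulfide isomerases were known to be higher from earlier results on these libraries, and the difference between the lists was not tested. The gene that fell, named after its values were seen, was Prkcsh, the regulatory subunit of glucosidase II (log2 change -0.32, limma adjusted p = 0.013). Its call was lost in 4 fits with a library left out, namely replicates 1 and 2 of Calr KO and replicates 2 and 3 of the controls (highest adjusted p 0.080) and with the replicate block (adjusted p = 0.0567). With a library left out, 8 or 9 of the list rose, and without the variance trend 0 passed.

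**Figure D4:**
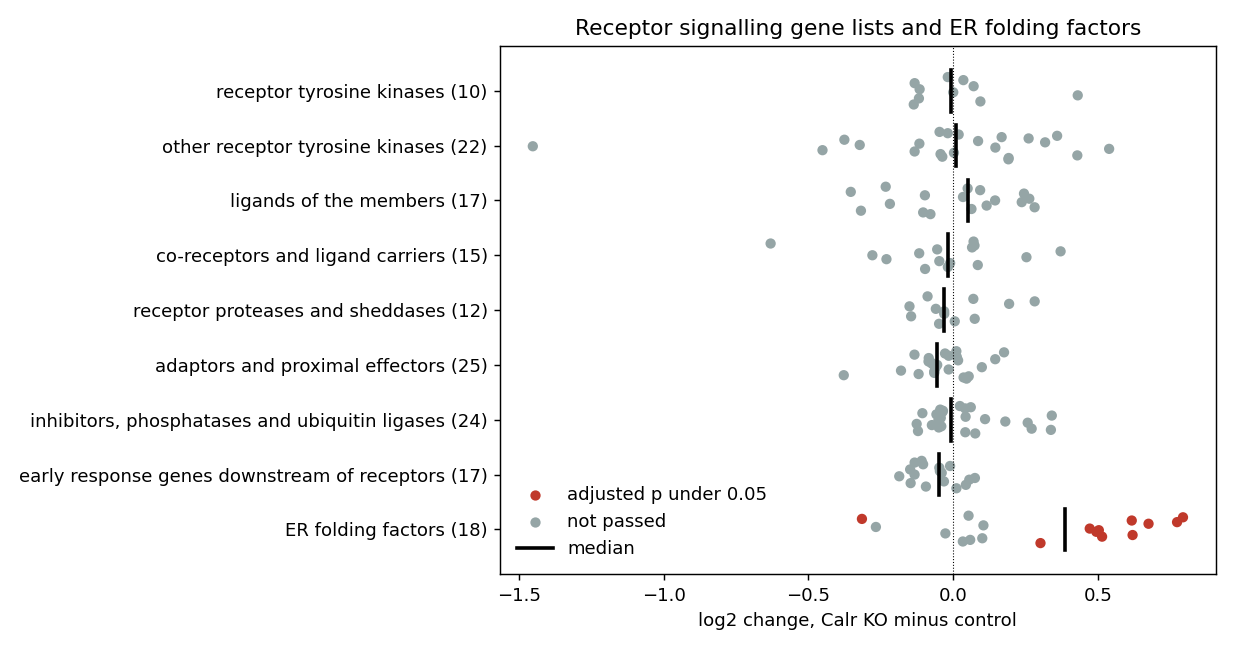
The log2 change of each tested gene (horizontal axis, Calr KO minus control) by list, with the number tested in brackets and a black bar at the median. Red points passed the limma test at an adjusted p under 0.05. All red points are in the ER folding list, and the receptor medians lie near 0.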

How the data were processed

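The deposited values are a signal in each library for each gene symbol: counts that the authors had normalised using DESeq2, per the labels. Salmon 0.14.1, STAR 2.6.1d, DESeq2 1.34.0 and the build mm10 appear in the submitters' processing notes with no role or order. The annotation release was not stated. The worth of 1 read was taken as the most frequent value near 1, so that libraries held an estimated 13571100 to 14919000 reads. Only 3.42% to 4.15% of values of 100 to 1000 reads were whole multiples within 0.02, so whole reads were not recovered and no count model was run. Genes with a mean of at least 10 were tested with limma 3.58.1 (R 4.3.3) on log2(value + 1), with a variance prior that follows the mean and Benjamini-Hochberg adjustment over all tested genes. The fit was tested on simulated data. Fold changes on this scale understate low genes. Lengths and positions are from GENCODE M21 on GRCm38, the assembly of mm10, and promoters from RefSeq.

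The 10 members and the 8 lists were chosen with earlier results of these data known. Each receptor was named, and of each list the called genes with the smallest adjusted p, up to 5, or, where none was called, the 2 most abundant and the 2 with the smallest p, with the 5 most abundant of the other receptors. The motifs were chosen after the values were seen. Alternatives changed the pseudocount, the filter, the scaling or the variance prior, used voom weights, added the replicate number as a block, or left out a library. A planned comparison of protein features was not made here. The values of some genes that the naming rule took are not reported here.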

Additional observations from a re-analysis of the deposited data

How the results depend on the processing

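The count of 0 receptors past the threshold was the same in all 17 alternative settings, and Calr passed in each of them. The number of genes changed over the whole table was 37, and 2 without the variance trend, which gives low and high genes the same prior variance. With a library left out it ran from 20 to 34, the low counts being 20 and 21 for the fits lacking Calr KO replicate 1 or Calr KO replicate 3, in that order, and 22 for those lacking control replicate 2 or 3. The log2 change of Fgfr1 was -0.0016 with columns rescaled to the same sum and -0.0101 with the same upper quartile. With a library left out it ran from -0.0599 to 0.0627, that of Egfr from -0.479 to 0.228, that of Pdgfra from -0.0741 to 0.104 and that of Pdgfrb from -0.0579 to 0.0495, so that the sign of these 4 receptors was not settled. The other 6 kept their sign in every setting, but their size moved with a library left out, from -0.208 to -0.0179 for Igf1r, -0.232 to -0.078 for Met, 0.0273 to 0.119 for Insr and 0.0433 to 0.129 for Ddr2. Of the 10 receptors, 8 kept their rank in control level per length of the longest transcript and 3 per coding length of the longest coding transcript.

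Same-numbered wells did not deviate together, with correlations of -0.056, -0.011 and 0.0014, so the numbers are not taken as pairs. With the replicate block 26 genes passed, and 0 receptors. Egfr had the fewest normalised counts of the 10 receptors, about 100.4 in control libraries. Counting error covers only part of the Egfr spread. The SD was 4.76 times that of counting alone in control cells and 2.51 times in Calr KO cells.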

Other observations

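Egr1 and Hgf were under the filter on low values and not tested in the main fit, and were chosen after their values were seen. With no filter on low values, 0 of 18 early response genes and 0 of 23 ligand genes passed. Egr1, an early response gene downstream of growth factor receptors, was listed at 0, 1.03 and 0 normalised counts in the Calr KO libraries and at 0 in all controls. Fos, one of the tested genes of the same list, averaged 222 in Calr KO and 251 in control cells. Hgf, the Met ligand gene, had 12.3, 12.3 and 13.5 in Calr KO cells, against 6.98, 6.21 and 7.72 in control cells. The Hgf groups did not overlap, as for 14.8% of the genes tested in the main fit.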
